A study of Homo sapiens with 4 samples.

Results

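The data described here are the open chromatin regions around 10 WNT pathway feedback genes in the human renal cancer line 786-O, which was derived from a clear cell tumour. The genes are WNT5A, DKK1, LGR5, RNF43, ZNRF3, NKD1, AXIN2, LEF1, TCF7L1 and TCF7L2, 10 of 19974 protein-coding genes on chromosomes 1 to 22 and X. Every peak that overlapped the GRCh38 span of one of these genes, or the 50 kb on either side of it, was taken, and peaks of different libraries that overlapped by at least 1 bp were merged. This gave 156 merged regions of 138467 in the whole series.

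Open DNA was mapped by ATAC-seq, which uses a transposase to cut and tag it. The 2 WT control libraries came from the Cas9-expressing negative control with a wild-type genotype, and the 2 DEK KO libraries from the same Cas9-expressing line after infection with guides against DEK, a nuclear factor known to associate with DNA and to act as a histone chaperone. All cells thus carry the Cas9 construct. Per the labels the Cas9 line was a clone and knockout cells were sorted singly, but whether 2 libraries of a genotype are separate clones or cultures is not stated, so p-values measure only the spread between these libraries. The extraction text in the labels describes RNA although the libraries are labelled genomic, and the files hold peaks and no reads, so depth is unknown. In a bulk library, a region open in fewer cells cannot be told apart from one less open in every cell.

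The 4 lists held between 89563 and 102760 peaks, and both DEK KO lists were longer than both control lists, which touches every count below. The labelled cell type was checked at gene starts. Of the renal and renal carcinoma markers reported here, PAX8, PAX2, LHX1 and VIM had a peak within 1 kb of a start or gene end in all 4 libraries, whereas EMX2, CA9 and NDUFA4L2 had none. The blood markers PTPRC and CD3E, the hepatocyte markers ALB and APOA2 and the endothelial markers PECAM1 and CDH5 had none in any library. The neuronal markers SYT1 and GAD1 had one in all 4.

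WNT ligands bind Frizzled receptors and LRP co-receptors, which halts the destruction of beta-catenin, so that it enters the nucleus and acts with DNA-binding TCF/LEF factors. Several genes switched on in this way act back on the pathway. DKK1 is secreted and blocks the co-receptors, RNF43 and ZNRF3 are membrane ubiquitin ligases that remove Frizzled, LGR5 is an R-spondin receptor that counters these ligases, NKD1 binds Dishevelled, and AXIN2 is a scaffold of the complex that destroys beta-catenin. LEF1, TCF7L1 and TCF7L2 encode the DNA-binding factors themselves, of which TCF7L1 is known mainly as a repressor, and WNT5A is a ligand known for signals that bypass beta-catenin. In the developing kidney, WNT signals start the formation of nephrons.

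The sequences just before the start of transcription show what the peaks did and did not cover. RefSeq promoters (GRCh38.p14) were at hand for 6 of the 10 genes, all but NKD1, AXIN2, LGR5 and ZNRF3. The 250 bases before the start are printed for the 4 whose start is also the outer end of the gene span. Those of TCF7L2 (chr10:112949997-112950246, plus strand) and RNF43 (chr17:58417535-58417784, minus strand) were covered at all 250 bases by a peak in each of the 4 libraries. Those of TCF7L1 (chr2:85133142-85133391, plus strand) were covered at 183 bases in DEK KO replicate 2 and at 0 in the other 3 libraries. Those of DKK1 (chr10:52314031-52314280, plus strand) were covered at 0 bases in every library. Capitals mark matches to the core of the TCF/LEF motif, searched on both strands as CTTTG followed by 2 letters that are each A or T, which gives 4 cores. No 2 matches overlap in these sequences.
TCF7L2: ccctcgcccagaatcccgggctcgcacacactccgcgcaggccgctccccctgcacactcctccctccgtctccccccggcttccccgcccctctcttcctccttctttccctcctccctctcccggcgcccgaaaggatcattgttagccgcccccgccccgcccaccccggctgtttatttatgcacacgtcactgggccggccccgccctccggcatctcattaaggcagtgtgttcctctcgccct
RNF43: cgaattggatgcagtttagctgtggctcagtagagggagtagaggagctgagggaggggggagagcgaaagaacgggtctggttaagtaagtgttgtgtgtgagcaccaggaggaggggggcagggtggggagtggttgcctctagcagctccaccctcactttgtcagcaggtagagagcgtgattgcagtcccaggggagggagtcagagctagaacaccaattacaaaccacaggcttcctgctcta
TCF7L1: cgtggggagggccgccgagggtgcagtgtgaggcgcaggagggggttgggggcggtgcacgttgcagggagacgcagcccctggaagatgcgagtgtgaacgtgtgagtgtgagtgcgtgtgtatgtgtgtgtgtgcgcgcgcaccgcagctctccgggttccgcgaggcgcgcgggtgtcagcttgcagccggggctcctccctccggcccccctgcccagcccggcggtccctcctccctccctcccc
DKK1: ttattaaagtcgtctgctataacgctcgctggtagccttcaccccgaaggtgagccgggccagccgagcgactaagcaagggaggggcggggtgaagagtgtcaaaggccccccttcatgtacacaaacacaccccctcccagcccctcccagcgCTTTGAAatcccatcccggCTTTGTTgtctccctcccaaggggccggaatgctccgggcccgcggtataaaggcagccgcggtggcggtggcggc

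Of these 4 stretches only that of DKK1 held core matches, CTTTGAA beginning 95 bases and CTTTGTT beginning 76 bases before the start. At least 1 of the 4 cores occurred in 12.0% of the 34961 stretches of this length in the promoter table. The 2 stretches covered in every library differed in composition. That of TCF7L2 held 21 CG pairs and 68.0% G and C, and that of RNF43 held 4 CG pairs and 56.0%, against a median of 11 CG pairs over the table. The stretch of DKK1, covered in no library, held 18 CG pairs, and that of TCF7L1, covered in part in 1 library, held 24. The matches are descriptions of letters and say nothing of bound factors.

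Over all 10 genes, 5 had a region called in all 4 libraries within 1 kb of an annotated start or, for the 4 genes with no promoter entry, of either gene end. They were LEF1, TCF7L2, WNT5A, RNF43 and ZNRF3. Of the 6 genes with an entry 4 had such a region, against a background of 62.3% of 15812 protein-coding genes in the table. At the start of RNF43 (chromosome 17, 58417170 to 58417986) the peak had a percentile within its list of 67.8 in WT control replicate 1, 80.0 in WT control replicate 2, 72.1 in DEK KO replicate 1 and 80.8 in DEK KO replicate 2. The percentile ranks each peak by its −log10 p within its own list, and pairs of values below follow the order of the replicate numbers. A second start of RNF43 (58402041 to 58402876) stood at 5.57 and 41.5 in the controls and 30.4 and 14.7 in DEK KO. Its difference of -0.979 points was -19.0 without WT control replicate 1 and 17.0 without WT control replicate 2. The genotypes overlapped at both RNF43 starts, as they did at the start regions of the other 4 genes.

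At the main start of TCF7L2 (chromosome 10, 112949847 to 112950431) the percentiles were 72.0 and 61.8 in the controls and 50.3 and 70.7 in DEK KO. A second start of this gene (113126365 to 113126961) stood at 51.8 and 31.6 against 40.7 and 61.0. The 250 bases before this second start were covered at 167 and 250 bases in the controls and at 0 and 131 in DEK KO. They held 1 core match, CTTTGTT beginning 133 bases before the start. At WNT5A a broad region (chromosome 3, 55485234 to 55488081) spanned one start. It was made of 1 to 3 peaks per library, which together covered 2184 and 2793 bp in the controls and 2342 and 2212 bp in DEK KO. Its percentiles were 32.8 and 56.6 in the controls and 55.5 and 48.0 in DEK KO. Before the other WNT5A start, at 55481398, the 250 bases were covered at 0 bases in every library. The peak at the ZNRF3 end of lower coordinate (chromosome 22, 28882853 to 28883718) stood at 52.9 and 56.1 in the controls and 40.7 and 64.2 in DEK KO. The LEF1 region (chromosome 4, 108167232 to 108169322) lay 0.931 kb upstream of the table's start, and it met the limit of 1 kb through the peak of WT control replicate 2. That start lies inside the gene span, and the merged region also overlapped the outer, upstream end of the span at 108168932. Its percentiles were 57.0 and 40.0 in the controls and 53.6 and 50.3 in DEK KO, and it overlaps another annotated gene, LOC124900752.

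The other 5 genes had no such shared region. AXIN2 had a peak at its end of higher coordinate (chromosome 17, 65561550 to 65561979) in both controls, at percentiles 37.9 and 28.0, and in DEK KO replicate 2, at 60.2, but not in DEK KO replicate 1. NKD1 had a peak 0.175 kb outside its end of lower coordinate in DEK KO replicate 1 alone, at percentile 19.0. At the lower end of LGR5 a region 0.147 kb outside the gene (chromosome 12, 71438661 to 71438982) was called in both controls, at percentiles 17.1 and 1.09, and in neither DEK KO library. The peak of WT control replicate 2 was close to the calling limit, and DEK KO replicate 1 had another peak 0.295 kb inside the gene at percentile 26.1. A region 1.03 kb inside was called in WT control replicate 2, at percentile 4.55, and in DEK KO replicate 1, at 5.28. TCF7L1 had the peak of DEK KO replicate 2 shown above by its sequence, at percentile 12.3.

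The nearest regions of DKK1 called in all 4 libraries lay on both sides of the gene. One lay 5.46 kb before the start (chromosome 10, 52308316 to 52308822), at percentiles 27.8 and 57.4 in the controls and 38.3 and 51.9 in DEK KO. The other lay 0.510 kb beyond the opposite end of this short gene (chromosome 10, 52318167 to 52320097). It was the strongest of the window, at 80.8 and 87.3 in the controls and 93.5 and 93.3 in DEK KO, so that the genotypes did not overlap. The difference of 9.35 points was 6.12 without WT control replicate 1.

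WT control replicate 1 had 95 peaks in the 10 windows together and replicate 2 had 91, while DEK KO replicate 1 had 115 and replicate 2 had 119. The means were 93.0 ± 2.83 and 117 ± 2.83 (SD, n = 2 each), a difference of 24 peaks with no overlap between genotypes. The exact permutation test gave p = 0.33 (two-sided), the smallest that 2 libraries against 2 allow. List length moved the size of this difference: with every list held to its 89563 highest-ranked peaks the windows held 95 and 90 peaks in the controls and 96 and 108 in DEK KO, a difference of 9.50. As a share, the windows took 10.6 and 10.1 of every 10000 peaks in the controls and 11.2 and 12.0 in DEK KO (exact permutation p = 0.33). Covered length was 59.9 and 63.4 kb in the controls and 73.2 and 69.0 kb in DEK KO (exact permutation p = 0.33). The peaks in the windows had median widths of 556 and 595 bp in the controls and 553 and 497 bp in DEK KO.

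**Figure D1:**
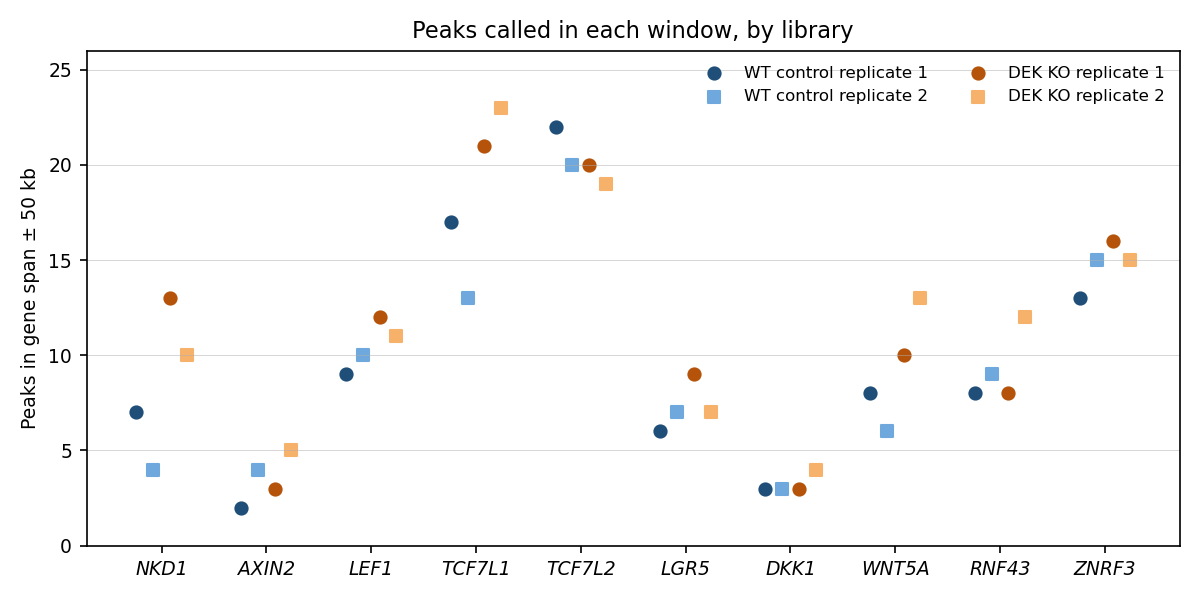
Number of peaks (vertical axis) in the window of each gene (horizontal axis), with 1 point for each of the 4 libraries. At NKD1 and TCF7L1 both DEK KO points lie well above both WT control points, while at TCF7L2 both lie at or below them.

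In 4 of the 10 windows both DEK KO libraries had more peaks than both controls, and in 0 both had fewer, over a background of 24.5% and 4.71% of the 19974 gene windows. NKD1 had 7 and 4 peaks in the controls and 13 and 10 in DEK KO. TCF7L1 had 17 and 13 against 21 and 23, WNT5A 8 and 6 against 10 and 13, and LEF1 9 and 10 against 12 and 11. In each of the 4 the exact permutation p was 0.33. At equal list lengths the DEK KO numbers stayed above the controls at NKD1, with 10 and 9, and at WNT5A, with 9 and 12. They overlapped the controls at TCF7L1, with 15 and 21, and at LEF1, with 12 and 10.

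TCF7L2 had 22 and 20 peaks in the controls and 20 and 19 in DEK KO. At equal lengths both DEK KO libraries had 17 there, below both controls, and DKK1 had 2 in both DEK KO libraries and 3 in both controls. The background at equal lengths was 13.1% of windows with more peaks and 12.2% with fewer in both DEK KO libraries. The remaining genes overlapped between genotypes at full length. AXIN2 had 2 and 4 peaks in the controls and 3 and 5 in DEK KO, LGR5 6 and 7 against 9 and 7, DKK1 3 and 3 against 3 and 4, RNF43 8 and 9 against 8 and 12, and ZNRF3 13 and 15 against 16 and 15. Per 100 kb of window, peaks were densest at TCF7L1, WNT5A and TCF7L2, with means of 6.68, 6.63 and 6.38 over the 4 libraries, and sparsest at AXIN2, with 2.63. The median over all gene windows was 5.01.

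Of the 156 regions, 62 (39.7%) were called in all 4 libraries, against 45.3% of all merged regions. The genotype-restricted regions comprised 14 called in both DEK KO libraries and no control (KO-only) and 7 called in both controls and no DEK KO library (WT-only). KO-only regions made up 8.97% of the regions in the windows and 6.26% of all regions, and WT-only regions 4.49% and 2.57%. A further 47 regions were called in 1 library alone, 36 of them in a DEK KO library and 11 in a control. They made up 30.1% of the regions, against 29.4% of all regions, and 76.6% of them were in a DEK KO library, against 63.3% over all regions called in 1 library. The remaining 26 were shared by 2 or 3 libraries of both genotypes.

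At equal list lengths 11 regions (7.91%) were KO-only and 7 (5.04%) WT-only, against 5.16% and 3.96% of all regions, and all 7 WT-only and 11 of the 14 KO-only regions kept their class. With a −log10 q of at least 5, 6 of the 14 and 4 of the 7 kept it. The KO-only regions that lost it were all those of LEF1, that of LGR5 and the weakest at each of NKD1, AXIN2, TCF7L1 and WNT5A. The WT-only regions that lost it lay at TCF7L2, LGR5 and ZNRF3. Counts of this kind grow when a library is left out. Leaving out DEK KO replicate 1 gave 36 KO-only regions and leaving out its replicate 2 gave 28. For WT-only regions, 12 were found when WT control replicate 1 was left out and 13 when its replicate 2 was.

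**Figure D2:**
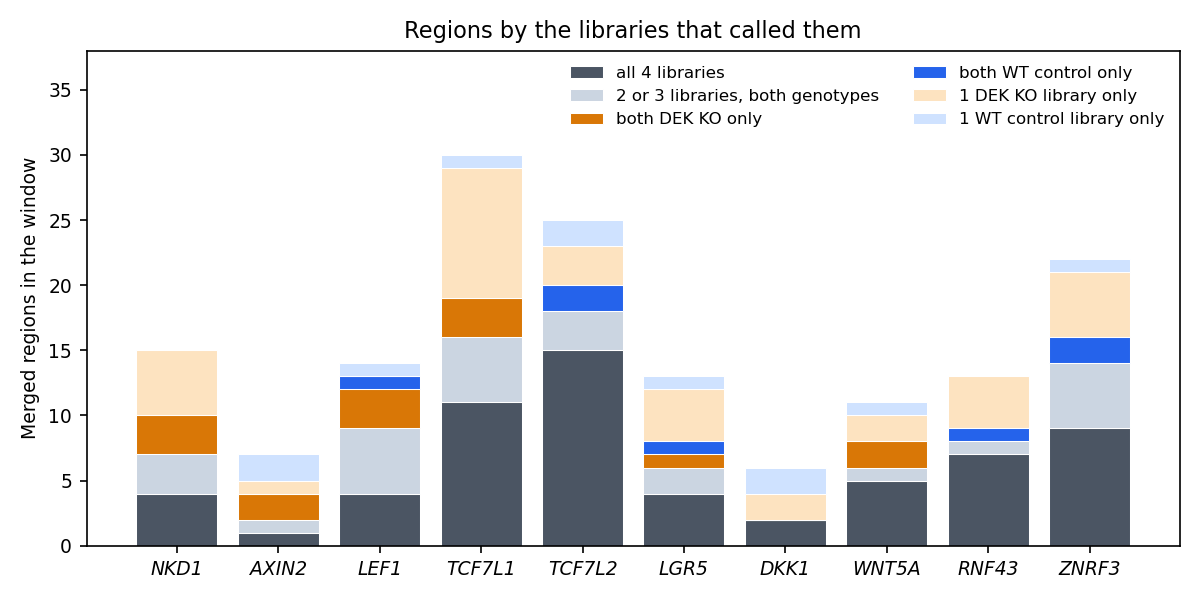
Number of merged regions (vertical axis) in the window of each gene, stacked by the libraries that called them. KO-only regions are found at NKD1, AXIN2, LEF1, TCF7L1, LGR5 and WNT5A, and WT-only regions at LEF1, TCF7L2, LGR5, RNF43 and ZNRF3.

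The genotype-restricted regions were mostly weak. The lower of the 2 percentiles had a median of 18.8 over the 14 KO-only regions, with a range from 0.449 to 34.5, and of 24.4 over the 7 WT-only regions, with a range from 1.09 to 48.3. Over all such regions of the series the medians were 21.6 and 16.0. Of the 14 KO-only regions 8 lay inside a member gene, and of the 7 WT-only regions 6 did. Gene spans filled from 3.38 of 103 kb (DKK1) to 217 of 317 kb (TCF7L2) of a window. No share inside genes over all regions was computed, so these counts show no preference of either class. Apart from the weak region at LGR5, no genotype-restricted region lay within 1 kb of a member's start or, where no start was at hand, of its ends.

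Among the intracellular inhibitors, NKD1 had 3 KO-only and 0 WT-only regions. A surplus of 3 or more was reached by 568 gene windows, 2.84% of all. That share covers windows of every length and was not matched to the 201 kb of this window, so it is no measure of rarity. The first lay inside the gene, 24.4 kb from its lower end (chromosome 16, 50572819 to 50573386), at percentiles 23.2 and 31.3 in DEK KO replicates 1 and 2. The second, also inside (50617616 to 50617956), stood at 37.5 and 20.4. The third lay 8.08 kb beyond the upper end (50657327 to 50657719), at 1.11 and 21.4, and was no longer KO-only at equal list lengths. A further region inside NKD1 (50611077 to 50612081) was barely called in WT control replicate 1, at percentile 3.35, and stood at 53.5 and 41.5 in DEK KO. The window also holds SNX20 and NOD2. Of the 4 regions called in every library 3 lay outside NKD1, near or inside SNX20 and NOD2. Of the 4, 3 ranked higher in both DEK KO libraries, against 31.1% of all regions of the series called in every library. Those at the NOD2 start (50696408 to 50697163 and 50697886 to 50698348) had differences of 15.2 and 13.5 points. At equal list lengths these differences were 11.02 and 3.43 points, and ranked by fold they were 4.44 and 2.93. The one inside NKD1 (50640241 to 50641212) stood at 40.8 and 24.4 in the controls and 41.0 and 43.4 in DEK KO, a difference of 9.65 points that was 1.42 without WT control replicate 2, 17.9 without WT control replicate 1 and 2.52 at equal list lengths.

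AXIN2, the other intracellular inhibitor, had 2 KO-only regions, both outside the gene. The stronger lay 13.8 kb below its lower end (chromosome 17, 65514077 to 65514778), at percentiles 63.1 and 33.3 in DEK KO replicates 1 and 2, with folds of pileup over background of 8.27 and 5.87. The weaker lay 42.3 kb above the upper end (65603946 to 65604529), at 21.6 and 18.8. No other protein-coding gene reaches into this window. Its single region called in all libraries lay inside the gene, 3.79 kb from the upper end (65556629 to 65557856), at 66.2 and 78.4 in the controls and 75.3 and 50.05 in DEK KO.

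Among the transcription factor genes, TCF7L1 had 3 KO-only and 0 WT-only regions, the same surplus as NKD1. The strongest lay 37.6 kb before the start (chromosome 2, 85095167 to 85095748), at percentiles 34.5 and 39.4 in DEK KO replicates 1 and 2. Inside the gene a region 80.6 kb from the start (85214028 to 85214321) stood at 23.3 and 42.9. Another 72.8 kb from the start (85206205 to 85206587) stood at 11.9 and 10.5 and lost its class at equal list lengths.

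LEF1 had 3 KO-only regions and 1 WT-only region. The WT-only region was the strongest of its class among the 10 genes. It lay inside the gene, 15.8 kb from the start (chromosome 4, 108149718 to 108150480), at percentiles 48.5 and 48.3 and folds of 7.02 and 6.71 in WT control replicates 1 and 2. The KO-only region 26.7 kb from the start (108139263 to 108139588) stood at 16.8 and 22.7 in DEK KO. That at 108058801 to 108059372 stood at 50.5 in DEK KO replicate 1 and at 0.449 in replicate 2, so only 1 library held more than a marginal peak. The third (107997128 to 107997592) lay inside the neighbouring gene HADH, at 16.8 and 10.5.

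Beyond the LEF1 start, 2 regions that a control shared stood higher in DEK KO. They were chosen after their values were seen. The region 44.6 kb upstream (108210909 to 108211549) was not called in WT control replicate 1, stood at 23.6 in replicate 2, and stood at 70.1 and 72.1 in DEK KO. The region 37.9 kb upstream (108204163 to 108205019) was likewise absent from WT control replicate 1, at 10.2 in replicate 2, and at 59.9 and 36.4 in DEK KO. In the other direction, a region inside LEF1 (108052981 to 108053879) stood at 64.7 and 63.5 in the controls, at 51.3 in DEK KO replicate 1, and was not called in DEK KO replicate 2.

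TCF7L2 differed from the other factor genes in having 0 KO-only and 2 WT-only regions. A surplus of at least 2 WT-only regions was found in 382 gene windows, 1.91% of all. This share, too, was not matched for length, and the TCF7L2 window of 317 kb is the longest of the 10. The stronger lay 80.1 kb from the main start (chromosome 10, 113030375 to 113031029), at percentiles 49.4 and 30.3 in WT control replicates 1 and 2. The weaker lay 38.7 kb from the start (112988943 to 112989260), at 2.38 and 14.4. Both are inside the gene. TCF7L2 had 15 regions called in every library, the most of the 10 genes, and the window holds no other protein-coding gene.

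Among the receptors and the ligases that remove Frizzled, ZNRF3 had 0 KO-only and 2 WT-only regions, both inside the gene, the same surplus as TCF7L2. One lay 34.1 kb from the lower end (chromosome 22, 28917705 to 28918556), at percentiles 24.4 and 32.8 in WT control replicates 1 and 2. The other (28999654 to 29000828) stood at 5.57 and 44.2. RNF43 had 1 WT-only region (chromosome 17, 58381152 to 58381706), inside the gene, at 34.3 and 45.0, and 0 KO-only regions. LGR5 had the WT-only region at its lower end and 1 KO-only region inside the gene (chromosome 12, 71546466 to 71546760), at 30.4 and 14.7 in DEK KO. No test of the difference between these genes and the others was made.

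Among the secreted factors, WNT5A had 2 KO-only regions and DKK1 had no genotype-restricted region. The WNT5A region inside the gene (chromosome 3, 55500457 to 55500921) stood at percentiles 27.3 and 18.8 in DEK KO replicates 1 and 2. The other lay 47.4 kb from the nearest start, inside the neighbouring gene ERC2 (55534720 to 55535365), at 38.3 and 29.9. Both kept their class at equal list lengths, but with a −log10 q of at least 5 only the one inside ERC2 did.

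**Figure D3:**
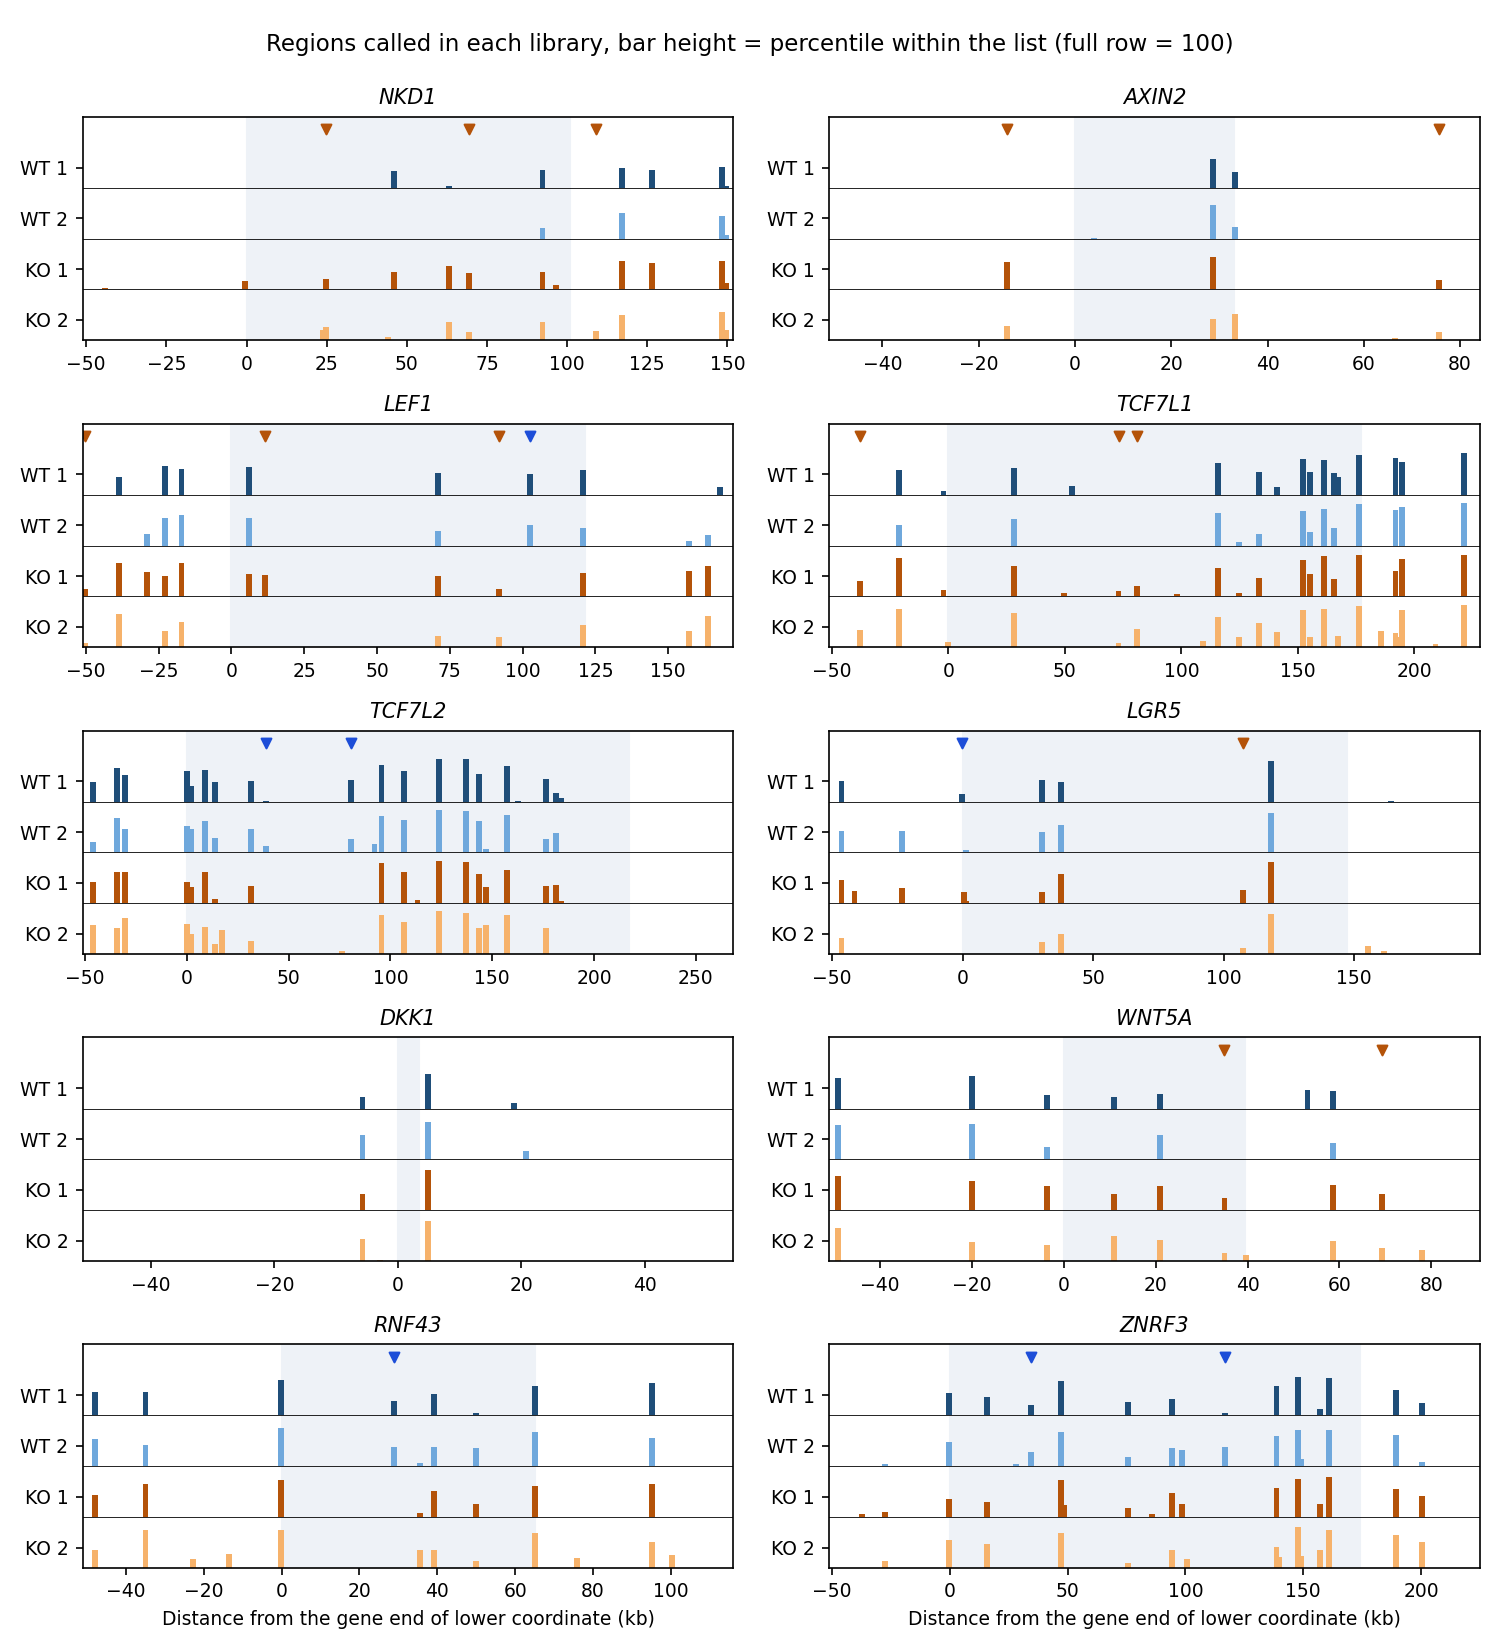
Each panel is the window of 1 gene, with the distance in kb from the gene end of lower coordinate on the horizontal axis and 1 row for each library (WT, WT control; KO, DEK KO). Bars mark called regions with their height as the percentile within the list, shading marks the gene span, and triangles mark KO-only (brown) and WT-only (blue) regions. Bars are widened for visibility, and the tallest, at TCF7L1, TCF7L2 and LGR5, stand in all 4 rows.

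Among the regions called in all 4 libraries, the highest mean percentile was inside TCF7L2 (chromosome 10, 113073570 to 113074548), at 99.6 and 98.7 in the controls and 97.4 and 99.3 in DEK KO. A region inside LGR5 (chromosome 12, 71556591 to 71557835), 28.5 kb from the upper end, stood at 95.2 and 90.7 in the controls and 95.3 and 92.5 in DEK KO. Inside ZNRF3 the highest region (chromosome 22, 29030794 to 29032176) stood at 89.6 and 83.7 against 88.1 and 94.3. The genotypes overlapped at each of these 3. At WNT5A the highest region lay outside the gene (chromosome 3, 55416108 to 55416940), at 69.9 and 80.4 against 78.6 and 75.5. In the other windows the highest shared region was often at a neighbour: at the starts of ELMOD3 and RETSAT for TCF7L1, of SUPT4H1 for RNF43 and of NOD2 for NKD1, and inside HADH for LEF1.

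Among the 62 regions called in every library, both DEK KO percentiles lay above both control percentiles in 17 (27.4%) and below in 13 (21.0%), and the genotypes overlapped in 32. The background over 62686 such regions was 31.1% above and 19.2% below, so the members stood near it. Because the lists differ in length, a rank shows a position in a list and not an amount of signal. At equal list lengths 10 of 61 regions (16.4%) lay above and 12 (19.7%) below, with 22.5% and 28.0% over all regions. The median difference between the DEK KO and control means was 1.93 percentile points over the 62 regions and 1.33 over all regions. Between the 2 controls the median gap was 6.58 points and between the 2 DEK KO libraries 9.28. The median absolute difference between genotype means was 6.38. The gaps compare single libraries and the last value compares means of 2, which vary less, so the values are not directly comparable.

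**Figure D4:**
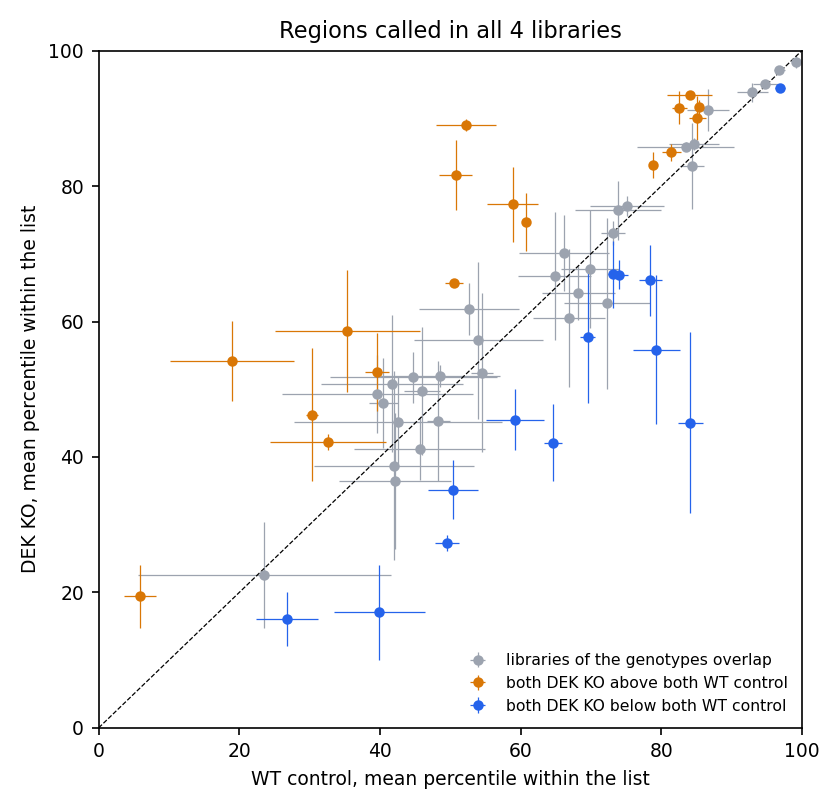
Mean percentile within the list in the 2 DEK KO libraries (vertical axis) against the 2 WT control libraries (horizontal axis) for the 62 regions called in all libraries, with bars from the lower to the higher library. The 17 orange and 13 blue regions have no overlap between genotypes, the dashed line marks equal rank, and the points farthest from it are the region before TCF7L1 (above) and the one in TGOLN2 (below).

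By −log10 p, the largest gain of rank was 20.1 kb before the start of TCF7L1 (chromosome 2, 85111082 to 85113340), with percentiles of 56.5 and 47.9 in the controls and 89.9 and 88.2 in DEK KO, a difference of 36.8 points. The region was called over 1491 bp (2 peaks) and 1053 bp in the controls and over 2243 and 2120 bp in DEK KO. Ranked by fold instead of −log10 p its difference was 19.2 points, below every other gain among the 5 largest. By fold the KREMEN1 and TSPOAP1 regions described further on stood at 42.7 and 29.7, and those before the TCF7L2 start at 29.2 and 20.7. The KREMEN1 difference was also larger without WT control replicate 1 (44.0 against 41.1). Without DEK KO replicate 1 those of KREMEN1 (41.0) and TSPOAP1 (36.08) were both above that of TCF7L1 (35.98). The largest loss lay in the TCF7L1 window (85324743 to 85325720), inside the neighbouring gene TGOLN2, which encodes a protein of the trans-Golgi network. It stood at 85.9 and 82.4 in the controls and at 58.4 and 31.7 in DEK KO, a difference of -39.1 points, or -25.7 without DEK KO replicate 2. Inside TCF7L1 a region 28.0 kb from the start (85161362 to 85162113) stood at 61.1 and 60.5 against 70.4 and 79.0.

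TCF7L2 held regions of both kinds. Before its start, the region 45.7 kb away (chromosome 10, 112903926 to 112904540) stood at 45.7 and 25.1 in the controls and 49.6 and 67.6 in DEK KO. Its difference of 23.2 points was 12.9 without WT control replicate 2 and 14.3 when DEK KO replicate 2 was left out. The region 30.0 kb away (112919613 to 112920278) stood at 62.5 and 55.3 against 71.8 and 82.8. Between them, a region 33.7 kb away (112915658 to 112916501) ranked lower in DEK KO, at 76.8 and 80.2 in the controls and 71.3 and 60.8 in DEK KO, a difference of -12.4 points, or -7.14 without DEK KO replicate 2. Just inside the gene, the region 13.6 kb from the start (112963825 to 112964419) stood at 46.4 and 33.5 in the controls and 10.1 and 24 in DEK KO, with peaks of 524 and 492 bp against 244 and 385 bp. It was no longer called in all 4 libraries at equal list lengths or with a −log10 q of at least 5. In all, 3 of the 15 shared regions of this window ranked higher and 5 lower in DEK KO. Over all shared regions of the series the background was 31.1% higher and 19.2% lower, and 22.5% and 28.0% at equal list lengths.

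At the other genes the largest differences lay away from the starts. At ZNRF3 a region inside the adjoining gene KREMEN1, which encodes a DKK receptor (chromosome 22, 29083723 to 29084545), stood at 27.8 and 10.2 in the controls and 48.3 and 60.02 in DEK KO, a difference of 35.1 points. With a −log10 q of at least 5 it was no longer called in all 4 libraries. At RNF43 a region inside TSPOAP1 (chromosome 17, 58317173 to 58317964) stood at 53.2 and 48.5 against 76.5 and 86.9, a difference of 30.9. Both of these gains thus lay outside the member gene.

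Regions that ranked lower in DEK KO included one 19.5 kb from the lower end of WNT5A (chromosome 3, 55445450 to 55446188), at 76.0 and 82.7 in the controls and 66.9 and 44.8 in DEK KO, a difference of -23.4 points, or -12.4 without DEK KO replicate 2. A region inside LGR5, 30.2 kb from its lower end (chromosome 12, 71469303 to 71469844), stood at 51.2 and 47.8 against 26.1 and 28.4. One in HADH, 22.3 kb below the end of LEF1 (chromosome 4, 108024384 to 108025230), stood at 65.9 and 63.4 against 47.8 and 36.4. For a single region, 2 libraries against 2 cannot give an exact permutation p below 0.33.

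The other genes of the pathway gave a comparison. A list of 82 further WNT pathway genes, all matched to the annotation, had more peaks in both DEK KO libraries than in both controls in 22 windows (26.8%) and fewer in 3 (3.66%), close to the background of all gene windows given above. The median difference between genotype means was 0.5 peaks per window over the 82 genes and over all genes, and 1.5 over the 10 feedback genes. These differences were not scaled to window length, which ran from 103 to 317 kb over the 10 genes, so the medians are not directly comparable. The 1034 merged regions of the 82 genes held 49 KO-only (4.74%) and 18 WT-only (1.74%) regions. KO-only regions outnumbered WT-only regions at 34 genes, the reverse held at 8, and the numbers were equal at 40, of which 38 had neither class. The comparison is not fully separate from the feedback genes, since KREMEN1 is on the list and its window overlaps that of ZNRF3. Windows within the list also overlap, such as those of WNT6 and WNT10A, so the counts of genes hold some regions more than once.

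The genes of this list with the most genotype-restricted regions were ROR1, a receptor of WNT5A, with 2 KO-only and 4 WT-only regions, and LRP6, a WNT co-receptor, with 1 and 3. FZD6, a Frizzled receptor, TCF7, the fourth TCF/LEF gene, and TNIK, a kinase that acts with TCF factors, had 2 and 1 each. Only TNIK among these 5 had more peaks in both DEK KO libraries, 38 and 40 against 35 and 36 in the controls. NKD2, the paralogue of NKD1, was singled out after its values were seen. It had 4 and 5 peaks in the controls and 8 and 13 in DEK KO, and 2 of its regions were KO-only and 0 WT-only.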

How the data were processed

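Each of the 2 WT control and 2 DEK KO libraries has its own deposited ATAC-seq peak list, so the authors called peaks per library. Cutadapt (1.18), Bowtie2 (2.2.5), SAMtools (1.7), Picard (2.26.9), MACS2 (2.2.7.1) and the build GRCh38 are among the names in the submitters' processing notes. Their settings, and any shift of reads for the transposase, are not given in the sources used here. In the deposited lists the score, not used here, is for nearly all peaks −log10 q multiplied by 10 and made whole, the fold is the authors' ratio of pileup to background at the summit, and p-value and q-value stand on the −log10 scale. Peaks were ranked by −log10 p within each list, and a region took its highest peak. These values are the authors' own for each peak and were compared between genotypes only as ranks.

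Between 135 and 167 peaks per list, off chromosomes 1 to 22 and X, were left out. Merging and counting used Python 3.11.15, numpy 2.4.6 and pandas 2.3.3, and figures matplotlib 3.10.9. The classes were tested on simulated data. Gene spans came from RefSeq GRCh38.p14. Library totals were compared by exact permutation over 6 assignments. Alternatives were equal list lengths, a stricter q, other windows, summits, ranking by fold, a replicate block and each library left out. The members and lists were chosen with earlier results of these data known. Regions named by rule were those at starts, every KO-only and WT-only region, the highest shared region of a window and the 5 largest rank differences in each direction; any other named region was picked after its values were seen. The marker NDUFA4L2 was matched through an older symbol. Some markers of the cell type check are not reported here.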

Additional observations from a re-analysis of the deposited data

How the results depend on the processing

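The direction of the peak number, share of the list and covered length over the 10 windows held under every alternative run, but 2 libraries against 2 cannot pass 0.05, and the peak difference of 24 was 9.50 at equal list lengths and 9.50 in gene spans alone. The share difference of 1.24 per 10000 peaks was 0.533 with 20 kb flanks and 0.204 in gene spans alone, and the covered length difference of 9.41 kb was 2.93 and 1.47 kb, with overlap between genotypes in each (exact permutation p = 0.667). Without WT control replicate 2 the share difference was 0.968 (exact permutation p = 0.667). Over the libraries left out in turn the peak difference ran from 22 to 26. Whether libraries with the same replicate number share more than that number is not stated. Their deviations correlated at 0.0124 across 62686 regions and at -0.173 across the 62 member regions, which cannot show whether a batch is shared. The fit with the replicate block gave the same 24 peaks (exact sign permutation p = 0.5, the smallest that 2 pairs allow), 1.24 per 10000 peaks and 9.41 kb.

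Shared regions ranked higher in DEK KO numbered 17 as reported, 10 at equal list lengths, 11 with −log10 q of at least 5, 10 with 20 kb flanks and 7 in gene spans alone, and those ranked lower 13 as reported and 8 in gene spans alone. KO-only regions numbered 8 in gene spans alone. Start regions called in all libraries numbered 3 instead of 5 when regions were built from summits widened by 100 bp, a construction that narrows each region. With a library left out, KO-only regions numbered 19 to 36, WT-only regions 8 to 13, higher-ranked regions 25 to 36, lower-ranked regions 18 to 25 and start regions 4 to 6, since fewer libraries make each rule easier to meet or shift a region's edge. Differences in peak number changed sign at DKK1 with equal list lengths (-1), at AXIN2 (-1) and RNF43 (-0.5) in gene spans alone, and at RNF43 without DEK KO replicate 2, with a range of -0.5 to 3.5 over the libraries left out; the cause was not tested. Of the 30 called rank differences, 29 kept a value at equal list lengths, 26 with −log10 q of at least 5, 29 from summits and 30 when ranked by fold or with a library left out. In these settings 1 changed sign, that of the region inside TCF7L1 on chromosome 2 from 85285363 to 85286063, from 3.57 to -0.229 when ranked by fold. Read depth is unknown, so a missing peak means only that the region was not called.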
